A study of Mus musculus with 6 samples.

Results

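The proteasome is the barrel-shaped protease that degrades ubiquitin-tagged proteins, and its subunits were compared between femur- and mandibular-derived monocytes, the bone marrow cells from which osteoclasts form. The 39 subunit genes were chosen by name (Psma1 to Psma8, Psmb1 to Psmb11, Psmc1 to Psmc6 and Psmd1 to Psmd14) from the 57010 genes of the count table. The rule on names used no expression values, but the choice was made with earlier results of these data known. RNA was sequenced in 6 libraries, 3 from the femur (S13, S15 and S18) and 3 from the mandible (S16, S19 and S23), of C57BL/6 mice (C57BL/6J in the study's methods) at 1 year of age. The monocytes were enriched by negative selection, which also keeps any other cell type that the antibody cocktail does not bind. Mice of both sexes were used, but the sex, the animal and the batch of each library are not given in the sources used here. The p-values therefore measure only the spread between these libraries, which may be technical.

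In its constitutive form, the 20S core is a stack of rings of alpha subunits, which gate the entrance, and rings of beta subunits, which include the active sites. The 19S regulatory particle caps the core: its base holds the ATPases that unfold substrates and its lid holds the enzyme that removes ubiquitin. In blood-forming cells, and on interferon signals, the active beta subunits Psmb5, Psmb6 and Psmb7 can be replaced by Psmb8, Psmb9 and Psmb10 to form the immunoproteasome, which shapes the peptides displayed on class I molecules. Each subunit has a fixed place in the complex, and the factor Nfe2l1 raises the transcription of their genes when proteasome activity is short.

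The genes were grouped by these roles into an alpha ring of 7, a beta ring of 7, an immunoproteasome of 3 and a regulatory particle of 20. The last comprised 6 base ATPases, 3 other base subunits, 8 lid subunits and 3 assembly chaperones that share the Psmd name. Psma8 and Psmb11, the subunits of testis and thymus, made up the remainder. Expression is given as CPM, the counts of a gene per 1000000 counts of its library, with library totals corrected by TMM, the trimmed mean of M values. A gene passed the low-count filter in 38 of the 39 cases. A gene was called at an adjusted p under 0.05 in edgeR's quasi-likelihood test over all 18114 tested genes together with a change of at least 2-fold, with the femur as the baseline.

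The libraries held 15718782 to 25371474 counts, and a count of 0 allows up to 3 counts, or 0.1325 to 0.1716 CPM, for counting error only. S23 stood apart by sex: it had 25189 counts of Xist, which female cells transcribe from their silenced X chromosome, and 0 counts of 4 Y-linked genes, where the other 5 libraries had 0 to 12 and 2772 to 4590 counts. The summed CPM of 8 monocyte markers overlapped between femur (2431 to 4320) and mandible libraries (2277 to 4621). The summed CPM of 8 neutrophil markers was 32640, 3699 and 23540 in S13, S15 and S18 and 6910, 10320 and 3902 in S16, S19 and S23, and 1 of the 8 was called lower in the mandible. The 4 tooth markers took 0.2209 to 2.212 CPM in femur libraries against 5704 to 11180 CPM in mandible libraries, and the 8 mesenchymal and osteoblast markers 329.9 to 417.4 against 7412 to 11550 CPM, with 4 of 4 and 6 of 8 called higher. Of the 8, Col1a1 and Col1a2 were the highest in the mandible, at means of 5801 and 3155 CPM. Cxcl12 was lower in every mandible library (log2 fold change -1.42, adjusted p = 0.084, edgeR), and Lepr overlapped between the groups (log2 fold change -0.44). The 6 erythroid and 6 megakaryocyte markers were lower in every mandible library, at 84.27 to 162.2 against 180 to 1310 CPM and at 72.02 to 104.5 against 528.6 to 849.5 CPM, with 2 and 4 called lower. The B lineage (778.2 to 1698 CPM), T and NK (40.63 to 131.9 CPM) and plasmacytoid and dendritic (31.33 to 65.2 CPM) sums overlapped between the groups. None of the lists had a marker at 0 in all libraries. In such bulk samples, fewer cells of a type and less RNA per cell cannot be told apart, and the part of these cell types in the values below was not tested.

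Of the 38 tested subunits, 33 had a lower fitted level in mandibular-derived monocytes, where 52.2% of all tested genes did. The median log2 fold change of the subunits was -0.63 against -0.038 over all tested genes. The size of the difference varied by place in the complex, with a median of -1.05 in the alpha ring, -0.82 in the beta ring, -0.35 in the immunoproteasome and -0.33 in the regulatory particle. The alpha ring genes Psma3, Psma5 and Psma6 fell. They were 7.89% of the tested subunits, where 1.3% of all tested genes were called lower, and all 3 were among the 14 tested genes of the core. No subunit was called higher, by edgeR's quasi-likelihood test, DESeq2, edgeR's exact test or limma-voom, none had an unadjusted p under 0.05 in that direction, and of all tested genes 3.88% were called higher and 9.18% were higher at an unadjusted p under 0.05. At an unadjusted p under 0.05, 15 subunits were lower, 12 of them core genes, where 7.25% of all tested genes were. In 11 of the 38 (28.9%), every mandible library lay below every femur library, against 11.5% of all tested genes, and in the other 27 the groups overlapped. In the plot of subunits by library, the 3 mandible columns are bluest in the alpha and beta rings. S15 was the lowest femur library in 33 of the 38 tested subunits, and S23 the lowest mandible library in 23.

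**Figure D1:**
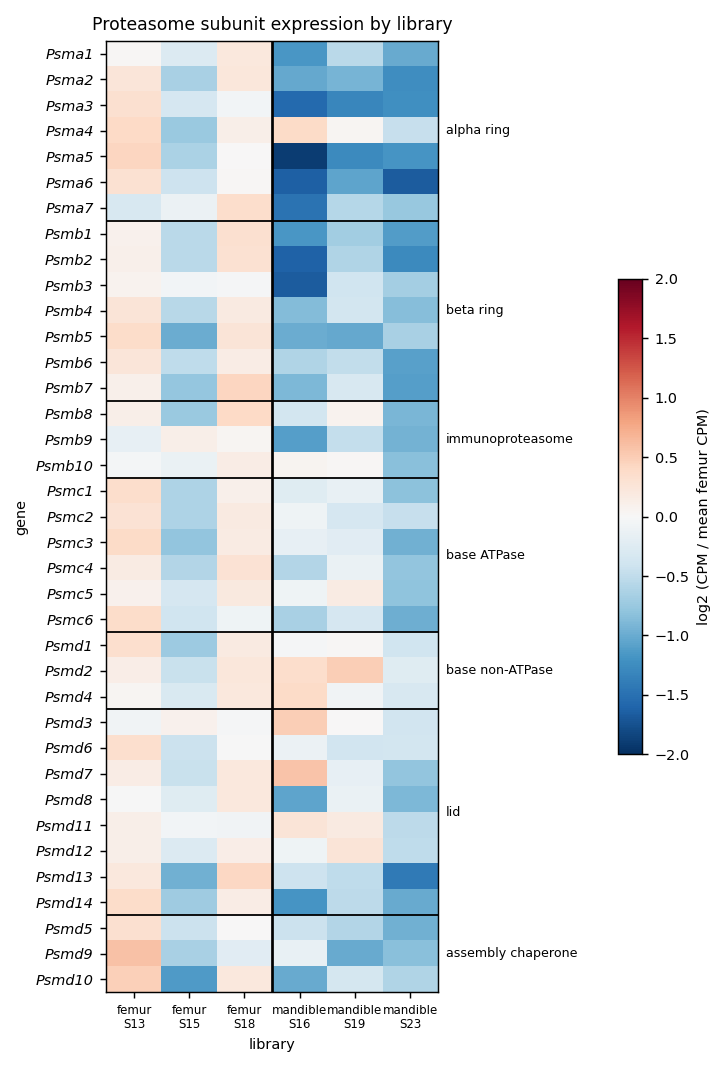
Expression of 37 subunit genes (rows, by class) in the 6 libraries (columns), as log2 of the CPM over the mean femur CPM, with blue below and red above that mean; Psma8 and Psmb11 are left out for their low levels. Psma3, Psma5 and Psma6 are blue in S16, S19 and S23, while Psma4 is not uniformly so and many base and lid rows mix both colours.

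Leaving out 1 library changed the number of subunits called lower from 3 to between 0 and 9. It was 0 without femur S13 and without mandible S16, 1 without femur S18 (Psma3), without mandible S19 (Psma6) and without mandible S23 (Psma3), and 9 without femur S15. The 9 were Psma1, Psma2, Psma3, Psma5, Psma6, Psmb1, Psmb2, Psmb5 and Psmd14. S15 was the femur library with the lowest summed core, immunoproteasome and regulatory particle expression. Its marker sums were also the lowest of the femur, except those of the monocyte and tooth lists. The part of any cell type in this was not tested. Without S23, the median log2 fold change was -0.98 in the core, -0.18 in the immunoproteasome and -0.26 in the regulatory particle, and without S15 it was -1.14, -0.66 and -0.61.

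Summed over its 14 genes, the core took 1618, 1065 and 1670 CPM in S13, S15 and S18 and 737.3, 950.1 and 737.7 CPM in S16, S19 and S23. The groups did not overlap, and the mean was 1451 ± 335.2 CPM (SD, n = 3) in the femur and 808.4 ± 122.8 CPM (SD, n = 3) in the mandible, a ratio of 0.557. The alpha ring (ratio 0.555) and the beta ring (ratio 0.56) were lower by a like amount, although the beta ring sums of S15 (387.9 CPM) and S19 (387.5 CPM) almost met. The sums of the 3 immunoproteasome genes were 291.7, 204.6 and 347.3 CPM for femur and 216.3, 279.4 and 150.9 CPM for mandible libraries, with overlap and a ratio of 0.766. Those of the 20 genes of the regulatory particle were 2144, 1295 and 2029 CPM for femur and 1669, 1662 and 1136 CPM for mandible libraries, also with overlap and a ratio of 0.817.

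**Figure D2:**
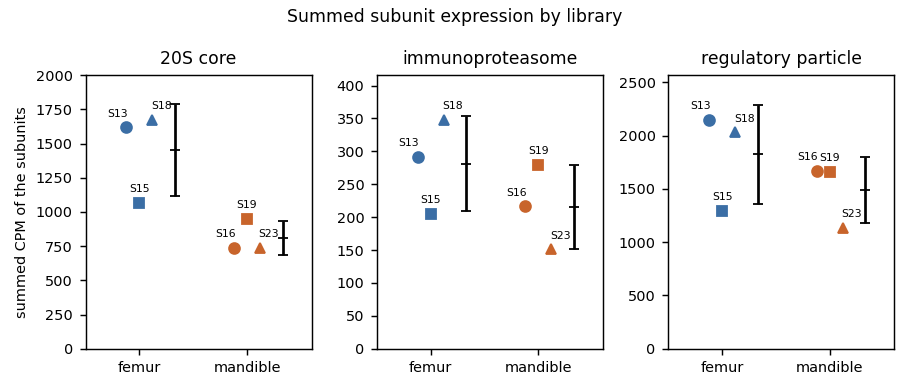
Summed CPM of the 20S core, the immunoproteasome and the regulatory particle in each library (points, labelled), with the mean and SD of each group (black, n = 3). The femur and mandible points separate for the core, at 1065 and above against 950.1 and below, and overlap in the other 2 panels.

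A comparison within each library does not depend on how the libraries are scaled. The median log2 CPM of the core was 0.10, 0.14 and 0.042 above that of the regulatory particle in S13, S15 and S18, and it differed from it by -0.90, -0.31 and -0.20 in S16, S19 and S23. The groups did not overlap, and the mean difference between them was -0.56 on the log2 scale. For the alpha ring against the regulatory particle the values were 0.16, 0.29 and 0.27 in the femur and -0.90, -0.24 and -0.17 in the mandible, again without overlap. With the beta ring in place of the alpha ring the groups overlapped, at -0.82 to -0.36 and -1.26 to -0.61. The log2 differences of the immunoproteasome from the core were -1.33, -0.53 and -0.96 in the femur, and the mandible values of 0.30, -0.23 and -0.66 overlapped with them.

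Core mRNAs were shorter than those of the regulatory particle, with a median of 1162 against 1710 bases for the principal transcript. Where principal transcripts of a gene ranked equally, the longest was used. By class, the median length was 899 bases in the beta ring, 1201 in the alpha ring and 1352 in the immunoproteasome. It was 1614 in the base ATPases, 1742 in the lid, 2597 in the assembly chaperones and 2961 in the other base subunits. In that order, the median log2 fold changes were -0.82, -1.05, -0.35, -0.39, -0.18, -0.63 and 0.025. Over all genes the median log2 fold change was -0.68 in the shortest 10% of the mRNAs and 0.31 in the longest 10%, 1365 genes each. When fold changes were taken after a loess curve on mRNA length was fitted to each library, chosen after seeing the data, the median log2 fold change was -0.30 in the core, -0.83 in the alpha ring, -0.16 in the beta ring, -0.069 in the immunoproteasome and -0.092 in the regulatory particle, against -0.091 over the 13657 genes in that fit. The beta ring and regulatory particle medians then lay near that of all genes, while the alpha ring median remained below it. Psma2 and Psma3, the alpha genes with the longest principal transcripts (2911 and 2846 bases), were called in that fit. They were at -1.04 (adjusted p = 0.029, limma) and -1.36 (adjusted p = 0.0032, limma). Psma5 and Psma6 were at -0.93 and -0.83, under the 2-fold threshold, and Psma1, Psma4 and Psma7 at -0.41, 0.57 and -0.21. How far these values depend on the principal transcript chosen was not tested. With the exonic length that the count table gives, the medians were -0.83 in the core and -0.30 in the regulatory particle, and Psma3 alone was called.

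**Figure D3:**
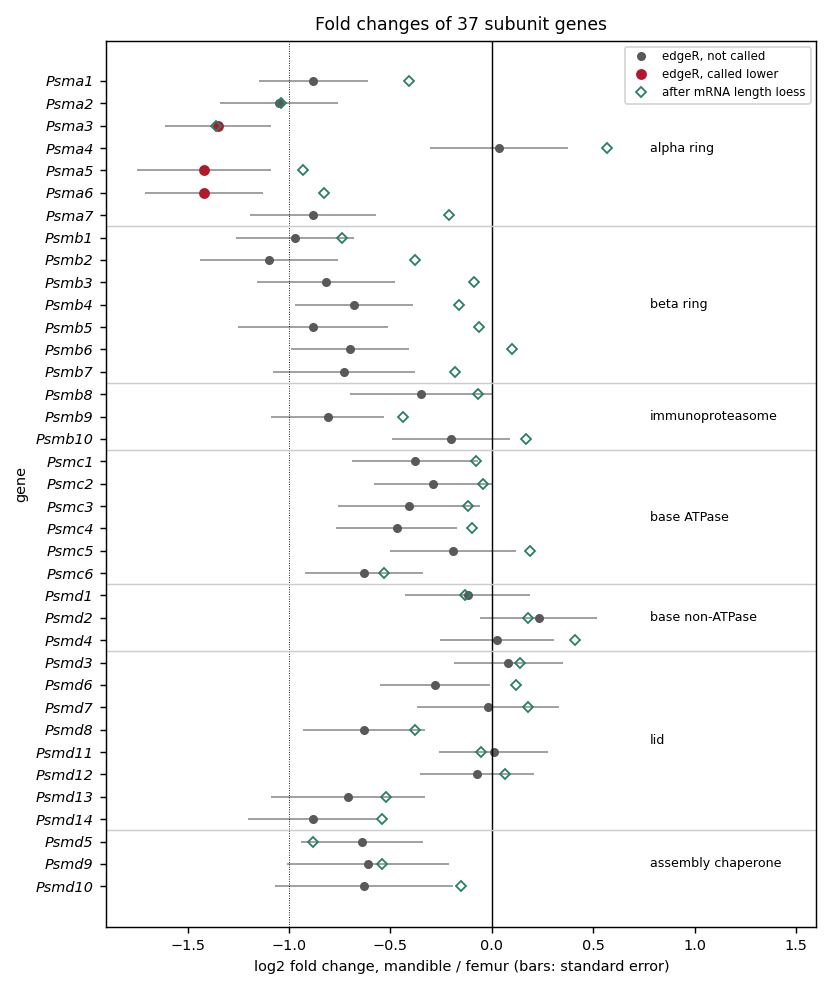
Log2 fold changes of 37 subunits (mandible over femur, circles, with standard errors; red where called lower) and the same after the mRNA length loess (diamonds); the dotted line marks 2-fold. The beta ring diamonds run from -0.74 for Psmb1 and -0.38 for Psmb2 to 0.10 for Psmb6, and those of Psma2 and Psma3 lie beyond the dotted line.

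Psma3, Psma5 and Psma6 encode alpha subunits of the ring that gates the barrel. Psma3 (ENSMUSG00000060073) lies on chromosome 12 from 70974621 to 70996347 of GRCm38, Psma6 (ENSMUSG00000021024) on the same chromosome from 55384222 to 55418454, and Psma5 (ENSMUSG00000068749) on chromosome 3 from 108256926 to 108279974. Processed copies elsewhere in the genome can share reads with Psma3 and Psma5. The stretches of coding sequence below are, for each subunit, the 60 gap-free bases where the copies shown together differed most from it. They were read from GRCm38 in the direction of the gene, and capitals mark the bases of a copy that differ from the subunit. Over the whole alignment to the coding sequence, mismatches or gaps took 0 of 662 positions in Gm13835 and 27 of 765 in Gm5406. They took 8 of 723 in Psma5-ps and 18 of 731 in Gm12989.
Psma3: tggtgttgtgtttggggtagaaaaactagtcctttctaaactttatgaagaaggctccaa
Gm13835: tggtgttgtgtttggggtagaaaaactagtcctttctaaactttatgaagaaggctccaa
Gm5406: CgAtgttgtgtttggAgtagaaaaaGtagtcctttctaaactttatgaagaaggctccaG
Psma5: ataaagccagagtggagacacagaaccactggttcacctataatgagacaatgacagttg
Psma5-ps: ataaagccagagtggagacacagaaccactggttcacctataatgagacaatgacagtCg
Gm12989: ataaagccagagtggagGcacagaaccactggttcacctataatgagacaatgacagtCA

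The Psma3 lines cover bases 132 to 191 of its coding sequence and the Psma5 lines bases 269 to 328. Gm13835, on chromosome 6 from 31141979 to 31142663, matched the Psma3 transcript without a difference over 665 bases, so a read from that stretch cannot be assigned to 1 of the genes. It held 1656, 958 and 1232 counts in the femur and 491, 614 and 712 counts in the mandible, and the 3 copies of Psma3 together held 36.6 to 49.6% of the counts of gene and copies. The 2 copies of Psma5 held 9.62 to 35.1%, the most in S16. How the counting treated reads with several positions, or the strand, is not given in the sources used here. With the counts of the copies added, an alternative chosen after seeing the data, Psma3 was at a log2 fold change of -1.21 (adjusted p = 0.033, edgeR) and Psma5 at -1.29 (adjusted p = 0.029, edgeR), and both were still called.

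Psma3 expression was 122.1, 77.5 and 94.8 CPM in S13, S15 and S18 and 33.5, 39.9 and 41.8 CPM in S16, S19 and S23. Every mandible library lay below the lowest femur library, and the gene fell (log2 fold change -1.35, standard error 0.26, adjusted p = 0.012, edgeR). It overlaps 3110056K07Rik on the other strand. The call was lost, at adjusted p = 0.072, 0.064 and 0.068 (edgeR), without femur S13, mandible S16 and mandible S19.

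Psma5 expression was 113.6, 54.2 and 84.5 CPM in the femur and 22.6, 34.8 and 37.0 CPM in the mandible. The groups were apart, with S16 the lowest of all, and the gene fell by 1.42 on the log2 scale (standard error 0.33, adjusted p = 0.028, edgeR). Of the 6 fits that left out 1 library, only that without S15 called it, and their adjusted p reached 0.16 (edgeR).

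Psma6 expression was 152.7, 92.9 and 126.1 CPM in the femur and 40.1, 59.7 and 39.0 CPM in the mandible. Its groups did not overlap either, and the gene fell by 1.42 on the log2 scale (standard error 0.29, adjusted p = 0.015, edgeR). It was called without S15 and without S19, and its adjusted p reached 0.082 (edgeR) in the other fits that left out 1 library.

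Psma4, another alpha subunit gene, on chromosome 9 from 54950790 to 54958030, stood apart from its ring. Its expression was 183.9, 83.9 and 152.2 CPM in the femur and 183.5, 144.3 and 102.2 CPM in the mandible. The groups overlapped throughout, and the fitted difference was near 0 (log2 fold change 0.034, standard error 0.34, adjusted p = 0.98, edgeR). It was -0.28 to 0.28 when 1 library was left out. Its copy Gm6542 held 6.04 to 12.2% of the combined counts, and adding them left the value at 0.034. Psma4 was the only one of the 7 alpha ring genes with a log2 fold change above 0.

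Psma7 had the highest expression per kilobase of mRNA among all subunits, 272 CPM per kilobase in the femur and 147 in the mandible, on the length of the principal transcript. Its CPM was 198.3, 229.4 and 318.4 in the femur and 89.1, 168 and 147.2 in the mandible. No mandible library reached the femur range, but the log2 fold change of -0.88 (standard error 0.31) did not pass the test (adjusted p = 0.16, edgeR), and it was -0.21 after the mRNA length loess. Psma1 and Psma2 were also lower in every mandible library, at -0.88 (adjusted p = 0.10, edgeR) and -1.05 (adjusted p = 0.066, edgeR) on the log2 scale. Psma2 was called lower by DESeq2 and edgeR's exact test but not by limma-voom. It was also called when all genes with a count, or only those with at least 10 counts in every library, entered the fit.

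In the beta ring all 7 log2 fold changes were negative, within the narrow range of -1.10 to -0.68, and none was called. At an unadjusted p under 0.05, 6 of the 7 were lower, where 7.25% of all tested genes were. DESeq2 and limma-voom called none, and edgeR's exact test called Psmb2. After the mRNA length loess the 7 values spread from -0.74 (Psmb1) to 0.10 (Psmb6), and none was called. Psmb1, a structural beta subunit and the highest of the ring in CPM, was at 181.4, 117.1 and 212.3 CPM in the femur and 76.2, 105.1 and 78.7 CPM in the mandible. All 3 mandible values lay below those of the femur (log2 fold change -0.97, standard error 0.29, adjusted p = 0.092, edgeR). With DESeq2 (-0.95, adjusted p = 0.021) and edgeR's exact test (-0.97, adjusted p = 0.032), Psmb1 missed only the 2-fold threshold. Psmb2, another structural subunit, was at 58.9, 38.1 and 68.4 CPM in the femur and 17.9, 36.2 and 22.8 CPM in the mandible. S19 came close to S15 without meeting it, and the log2 fold change was -1.10 (standard error 0.34, adjusted p = 0.10, edgeR). Psmb4, which had the smallest difference of the ring, was at 131.8, 75.1 and 124.4 CPM in the femur and 60.5, 85.2 and 61.4 CPM in the mandible. S19 exceeded S15, and its log2 fold change was -0.68 (standard error 0.29, adjusted p = 0.26, edgeR). Psmb3, with 6 near-identical copies that held 5.99 to 16.1% of the combined counts, was at -0.82 alone and at -0.78 with them.

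The active sites of the core are formed by Psmb6 (beta1), Psmb7 (beta2) and Psmb5 (beta5), and the inducible Psmb9, Psmb10 and Psmb8 take their places. Psmb5, which cuts after hydrophobic residues and lies on chromosome 14 from 54614119 to 54618022, was at 46.9, 18.2 and 43.5 CPM in the femur and 18.2, 17.9 and 22.99 CPM in the mandible. Femur S15 lay inside the mandible range, and the log2 fold change was -0.88 (standard error 0.37, adjusted p = 0.26, edgeR). Without S15, Psmb5 was at -1.24 and was called (adjusted p = 0.024, edgeR), and without S13 it was at -0.65 (adjusted p = 0.77, edgeR). It was at -0.17 (adjusted p = 0.81, limma) after the gene length loess and at -0.064 (adjusted p = 0.93, limma) after the mRNA length loess.

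Psmb6, on chromosome 11 from 70525367 to 70527858, was at 109.5, 65.0 and 101.9 CPM in the femur and 60.8, 65.3 and 43.5 CPM in the mandible. The groups met only at S15 and S19 (log2 fold change -0.70, standard error 0.29, adjusted p = 0.23, edgeR). Psmb7, on chromosome 2 from 38588036 to 38644087, was at 61.9, 33.8 and 77.8 CPM in the femur and 31.1, 46.1 and 27.1 CPM in the mandible. S19 exceeded S15, and its log2 fold change was -0.73 (standard error 0.35, adjusted p = 0.33, edgeR). Psmb7 overlaps Nek6 and Gm13586 on the other strand.

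Psmb8, the inducible beta5 subunit, on chromosome 17 from 34197721 to 34201454, was at 205.6, 112.8 and 248.6 CPM in the femur and 146.1, 199.2 and 100.8 CPM in the mandible. The ranges overlapped over most of their width (log2 fold change -0.35, standard error 0.35, adjusted p = 0.74, edgeR). Psmb10, the inducible beta2 subunit, on chromosome 8 from 105935735 to 105938444, was at 46.6, 43.7 and 52.8 CPM in the femur and 49.4, 48.3 and 26.8 CPM in the mandible. S16 and S19 lay within the femur range and S23 below it (log2 fold change -0.20, standard error 0.29, adjusted p = 0.84, edgeR).

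Psmb9, the inducible beta1 subunit, differed from the other two in that its groups did not overlap. It was at 39.5, 48.1 and 45.9 CPM in the femur and 20.8, 31.9 and 23.2 CPM in the mandible, but the difference did not pass the test (log2 fold change -0.81, standard error 0.28, adjusted p = 0.15, edgeR). It lies on chromosome 17 from 34181987 to 34187764 and overlaps Tap1, which encodes a subunit of the peptide transporter, on the other strand. Tap1 itself was at 92.5, 99.9 and 115.7 CPM in the femur and 89.8, 111.1 and 62.3 CPM in the mandible, with overlap (log2 fold change -0.23, adjusted p = 0.79, edgeR).

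**Figure D4:**
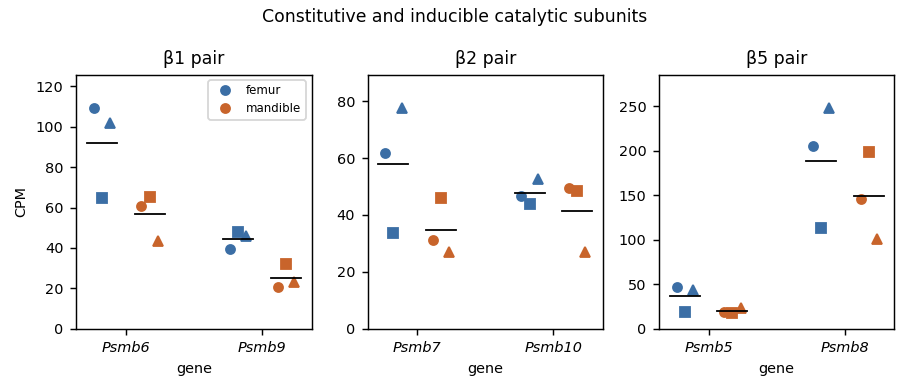
CPM of each constitutive catalytic subunit (left) and its inducible counterpart (right) in femur (blue) and mandible (orange) libraries; markers distinguish the libraries of a group (circle S13 or S16, square S15 or S19, triangle S18 or S23) and bars are means. The groups are apart for Psmb9 and overlap in the other 5 genes.

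The count ratio of the inducible to the constitutive subunit was tested for each of the 3 pairs, by an exact two-sided permutation test whose smallest p is 0.1 with 3 libraries against 3. The ratio of Psmb8 to Psmb5 was 4.38, 6.19 and 5.72 in the femur and 8.01, 11.1 and 4.38 in the mandible. S23 equalled the lowest femur ratio to 3 digits, and the log2 difference of 0.44 had an exact permutation p = 0.5, or 0.75 adjusted over the 3 pairs. The ratio of Psmb10 to Psmb7 was 0.752, 1.29 and 0.679 in the femur and 1.59, 1.05 and 0.992 in the mandible, with overlap through S15 and a log2 difference of 0.44 (exact permutation p = 0.3, adjusted 0.75). The ratio of Psmb9 to Psmb6 was 0.361, 0.74 and 0.45 in the femur and 0.342, 0.489 and 0.534 in the mandible, with a log2 difference of -0.14 (exact permutation p = 0.8, adjusted 0.8). The sign of that difference turned without femur S15 (0.15) and without mandible S16 (0.048). When 1 library was left out, the log2 difference was 0.14 to 0.81 for Psmb8 to Psmb5 and 0.23 to 0.73 for Psmb10 to Psmb7. With 3 libraries per group this test could not have passed 0.05, so the p-values do not show that the ratios were alike.

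In the regulatory particle 16 of the 20 log2 fold changes were negative, where 52.2% of those of all tested genes were. The 20 values ran from -0.88 to 0.23, and none was called by edgeR's quasi-likelihood test, DESeq2, edgeR's exact test or limma-voom. At an unadjusted p under 0.05, 2 of the 20 were lower, Psmd14 and Psmc6, where 7.25% of all tested genes were. The groups overlapped in 19. Every mandible library lay below every femur library in 1 of the 20, against 11.5% of all tested genes. After the mRNA length loess the 20 values ran from -0.88 (Psmd5) to 0.41 (Psmd4), and none was called. The 6 base ATPases, which unfold the substrate, had a median of -0.39 with all 6 values below 0. Psmc3, the highest of them in CPM, was at 266.8, 118.7 and 228.8 CPM in the femur and 181.8, 174.6 and 105.3 CPM in the mandible, with overlap (log2 fold change -0.41, standard error 0.35, adjusted p = 0.67, edgeR). Psmc6, the lowest in fold change, was at 147.4, 86.4 and 107.2 CPM in the femur and 72.7, 89.9 and 57.8 CPM in the mandible. S19 exceeded S15 there (log2 fold change -0.63, standard error 0.29, adjusted p = 0.30, edgeR). Psmc5, the nearest to 0, was at 48.2, 36.2 and 52.4 CPM in the femur and 43.1, 50.9 and 26.0 CPM in the mandible, a log2 fold change of -0.19.

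The large base subunits Psmd1 and Psmd2 form the scaffold that receives ubiquitin receptors, and Psmd4 is itself such a receptor. Their log2 fold changes were -0.12, 0.23 and 0.025. Psmd2, the highest of all subunits in fold change, was at 141.5, 95.1 and 151.9 CPM in the femur and 165.6, 181.5 and 109.2 CPM in the mandible. S16 and S19 exceeded every femur library and S23 did not (standard error 0.29, adjusted p = 0.80, edgeR). Psmd1 was at 149.8, 72.2 and 135.5 CPM in the femur and 117.9, 121.0 and 90.8 CPM in the mandible, with the whole mandible range inside that of the femur.

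The lid was the class with the widest span of fold changes within the regulatory particle, from -0.88 to 0.082. Psmd14, the deubiquitinase of the lid, was at 119.5, 56.8 and 103.2 CPM in the femur and 40.9, 64.5 and 46.3 CPM in the mandible. S19 exceeded S15, and the log2 fold change of -0.88 (standard error 0.32) did not pass the test (adjusted p = 0.17, edgeR), while it was -1.18 and called without S15 (adjusted p = 0.018, edgeR), -0.66 without S13 (adjusted p = 0.61, edgeR) and -0.54 after the mRNA length loess (adjusted p = 0.25, limma). Psmd3, a scaffold subunit of the lid, was at 61.4, 68.4 and 63.1 CPM in the femur and 90.1, 64.5 and 49.5 CPM in the mandible. The mandible libraries spread to both sides of the femur (log2 fold change 0.082, adjusted p = 0.94, edgeR). Psmd8, the highest lid gene in CPM, was at 146.4, 124.1 and 170.4 CPM in the femur and 70.8, 134.3 and 79.2 CPM in the mandible, with S19 inside the femur range (log2 fold change -0.63, adjusted p = 0.33, edgeR). Psmd7, Psmd11 and Psmd12 were at -0.021, 0.0088 and -0.074.

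Psmd5, Psmd9 and Psmd10 carry subunit names but are chaperones that assemble the base and leave the finished particle. Per kilobase of mRNA their CPM was the lowest of the tested subunits other than Psma8, at 8.67 in the femur and 5.57 in the mandible for Psmd5. Psmd5 was at 47.5, 28.4 and 38.5 CPM in the femur and 28.4, 25.5 and 19.6 CPM in the mandible, and was the gene of the regulatory particle whose groups did not overlap, by the margin between 28.43 and 28.42 CPM (log2 fold change -0.64, adjusted p = 0.34, edgeR). Psmd9 was at 39.5, 16.7 and 22.5 CPM in the femur and 23.7, 13.1 and 14.8 CPM in the mandible, with overlap and a log2 fold change of -0.61. The 3 chaperones differed little in fold change, from -0.64 to -0.61.

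The tissue-specific subunits had few counts. Psma8, which replaces Psma7 in the testis, was at 1.82, 2.12 and 1.19 CPM in the femur and 2.15, 1.28 and 0.40 CPM in the mandible (log2 fold change -0.42, standard error 1.17, adjusted p = 0.93, edgeR). Psmb11, the beta5 subunit of the thymus, had 16 counts in S15 and 0 in the other libraries, which allows up to 0.1716 CPM, and it was not tested.

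Of the other genes of the ubiquitin-proteasome pathway, 34 were tested, and their median log2 fold change of -0.16 lay nearer to that of all genes than the median of the core did. One was called lower and 1 higher, where 1.3% and 3.88% of all tested genes were. At an unadjusted p under 0.05, 5 were lower and 2 higher, where 7.25% and 9.18% of all tested genes were. Nfe2l1, the transcription factor of the subunit genes, was at 71.9, 61.4 and 74.4 CPM in the femur and 162.7, 130.3 and 131.7 CPM in the mandible. The groups were well apart, and it rose (log2 fold change 1.03, standard error 0.24, adjusted p = 0.032, edgeR). The value lies close to the 2-fold threshold: it was 0.91 to 1.09 when 1 library was left out, with an adjusted p of 0.044 to 0.14 (edgeR) and no call in any of these 6 fits, and 0.72 (adjusted p = 0.077, limma) after the mRNA length loess.

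Rps27a, which encodes ubiquitin fused to a ribosomal protein, was at 456.2, 239.4 and 301.5 CPM in the femur and 51.7, 115.9 and 149.9 CPM in the mandible. It fell (log2 fold change -1.65, standard error 0.40, adjusted p = 0.037, edgeR). After the mRNA length loess it was at -0.93 (adjusted p = 0.11, limma), and of the 6 fits that left out 1 library the 2 without S15 and S23 called it. Ubb, the polyubiquitin gene with the highest CPM of the list, was at 1129, 545.8 and 977.3 CPM in the femur and 800.8, 757.9 and 595.8 CPM in the mandible, with overlap (log2 fold change -0.30, adjusted p = 0.78, edgeR). Sem1, the smallest subunit of the lid, was at 526.4, 311.4 and 488.7 CPM in the femur and 180.6, 253.3 and 209.6 CPM in the mandible. Its groups did not overlap, and its log2 fold change of -1.04 (standard error 0.30) missed the threshold (adjusted p = 0.079, edgeR). Sem1 was called by DESeq2 (adjusted p = 0.0052), by edgeR's exact test (adjusted p = 0.017), when all genes with a count entered the fit (adjusted p = 0.033, edgeR) and without S15 (-1.29, adjusted p = 0.011, edgeR), and it was at -0.69 (adjusted p = 0.16, limma) after the mRNA length loess. Nfe2l3, a relative of Nfe2l1, was at 0 CPM in S13 and S18 and 0.74 CPM in S15, and at 1.45, 5.08 and 10.5 CPM in the mandible. Its groups did not overlap, but the fitted difference did not pass the test (log2 fold change 4.48, standard error 1.55, adjusted p = 0.15, edgeR). It was called by DESeq2 (adjusted p = 0.014), when all genes with a count entered the fit (adjusted p = 0.0057, edgeR), after the mRNA length loess (adjusted p = 0.037, limma) and without S15 (adjusted p = 0.011, edgeR), where both remaining femur libraries were at 0.

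The element to which Nfe2l1 and its relatives bind was looked for as TGACNNNGC, on both strands, in RefSeq promoters of GRCm38.p6, from 250 bases before to 50 after a gene's start. Promoters were matched for 32 of the 39 subunits, in 34 windows. The letters were present in 14.7% of these windows, of Psmb5, Psmb6, Psmc6, Psmd12 and Psmd9, and in 12.4% of 32851 promoters. Those of the catalytic subunits Psmb5 (chr14:54618014-54618062, minus strand) and Psmb6 (chr11:70525328-70525376, plus strand) are shown with the match in capitals, since these genes encode active subunits and Nfe2l1 rose.
Psmb5: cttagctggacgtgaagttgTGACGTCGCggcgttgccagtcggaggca
Psmb6: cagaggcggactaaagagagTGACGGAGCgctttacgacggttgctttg

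The match began 47 bases before the start in Psmb5 and 9 bases before it in Psmb6, and neither gene was called. The interferon response element, searched on both strands as a pair of GAAA with 2 bases of any kind between them, was present in 8.82% of the subunit windows, of Psmb3, Psmd4 and Psmd9, and in 3.44% of all promoters. Psmb8, Psmb9 and Psmb10 were not among the subunits with a match. Whether their promoters were among those of the 32 matched subunits is not shown here.

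The genes that work with the immunoproteasome in class I presentation, and the factors that induce both, were taken as a further list. Of 14 tested, 3 had a negative log2 fold change, where 52.2% of all tested genes did. The median was 0.14, and none of the 14 was called by edgeR's quasi-likelihood test, DESeq2, edgeR's exact test or limma-voom. At an unadjusted p under 0.05, 0 were lower and 1 was higher, where 7.25% and 9.18% of all tested genes were. Calr, a chaperone of class I molecules and the highest of the list in CPM, was at 1359, 575.5 and 1345 CPM in the femur and 1835, 1008 and 672.1 CPM in the mandible. H2-D1, a class I heavy chain, was at 787.6, 543.1 and 952.1 CPM in the femur and 873.3, 928.9 and 650.3 CPM in the mandible. Both overlapped between the groups, and each had a log2 fold change of 0.10.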

How the data were processed

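Monocytes of the mandible and the femur were sequenced in paired-end reads in 6 libraries. The authors trimmed the reads with Trimmomatic, mapped them with Hisat2 2.1.0 to GRCm38 and counted them with featureCounts, and deposited raw counts per gene without normalization. The positions in the count table lay inside the GENCODE M21 gene for 3031 of 52081 shared genes and for 0 of the 39 subunits, so positions and mRNA lengths were taken from M21 (GRCm38) by Ensembl identifier.

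The tests of counts used edgeR 4.0.16 in R 4.3.3 (low counts removed by filterByExpr, minimum count 10 and minimum total 15, TMM, quasi-likelihood test, prior count 0.125, Benjamini-Hochberg adjustment over 18114 genes), without covariates, and the functions were tested on simulated data. Ratios had a pseudocount of 0.5. Copies were found with blastn 2.17.0 (at least 90% identity over 400 bases). The alternatives included limma-voom (limma 3.58.1), DESeq2 1.42.0 and the exact test of edgeR, other scalings and filters, length loess curves (limma-trend, span 0.4), added copies and leaving out each library.

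The subunits and lists were chosen with earlier results of these data known. Described with values were the catalytic pairs, called genes and, per class, the highest CPM and the highest and lowest fold change. Paaf1, which was on the pathway list, was not analysed here. A gene that met this rule is not reported here. The samples shared no replicate numbers between groups.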

Additional observations from a re-analysis of the deposited data

How the results depend on the processing

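Over all genes, 938 calls became 1536 with DESeq2, 1468 with edgeR's exact test, 1590 when all genes with a count entered the fit, and 434 to 1565 when 1 library was left out. The 3 subunits called lower became 5 with the exact test, 6 with every gene with a count, 1 with the gene length loess, and 0 to 9 when 1 library was left out. The other pathway genes called, 2 in all, became 4 with DESeq2, the exact test and every gene with a count, 0 with the gene length loess, 1 with the mRNA length loess and without normalization factors, and 0 to 4 when 1 library was left out. The core median of -0.88 moved to -0.30 after the mRNA length loess and was -1.14 to -0.77 when 1 library was left out. The log2 ratio of Psmb9 to Psmb6, -0.14, ranged from -0.37 (without S13) to 0.15 (without S15) when 1 library was left out, and also turned, to 0.048, without S16. No subunit was called higher under any alternative, and the cause of these shifts was not tested. No paired analysis was possible because the groups shared no replicate number. The animal and batch of the libraries are not stated, so a batch that differed with the site cannot be told apart from it. Without S23, the library with Xist counts and no Y-linked counts, the core median was -0.98.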
